A study of Danio rerio with 6 samples.

Results

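Immediate early genes are switched on within minutes of a stimulus from factors that are already present in the cell. The genes described here are 10 zebrafish immediate early transcription factor genes: fosab, fosb, fosl1a and fosl2 of the Fos family, jun, junba and junbb of the Jun family, and atf3, egr1 and ier2a. They were taken by name from the gene tables, without regard to case and without the suffix a or b where a name with it was absent. Each of the 10 names met 1 gene, out of 32520 genes in the tables. The human-style symbol JUNB stands for 2 genes in the name table, and these were told apart by chromosome, junba on chromosome 1 and junbb on chromosome 3.

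Fos and Jun proteins pair through their leucine zippers to form AP-1, which binds DNA and regulates genes of proliferation, migration, matrix remodelling and stress. Growth factor and MAP kinase signalling, including signalling through BRAF, induces these genes, and so do wounding, heat, and the enzymatic dissociation of a tissue into single cells. In melanocytes and melanoma, AP-1 is known for its part in the response to MAP kinase signalling and in the switch between pigmented and less differentiated states.

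The study compared pigment cells and melanoma cells from the skin of zebrafish at 1 month of age, to ask how the loss of mgat4b, an enzyme that adds a branch to N-glycans, acts on the start of melanoma. RNA was sequenced from 2 libraries in each of 3 groups. In mgat4b mutant melanoma, embryos of the ASWT strain had received the MAZERATI plasmids, in which the melanocyte promoter mitfa drives BRAF with the V600E change and Cas9 is directed against p53 and ptena/b, together with a mitfa:Cas9;mitfa:gfp plasmid directed against mgat4b. Control melanoma carried the same oncogene and the same p53 and ptena/b targeting, with no targeting of mgat4b. In place of that targeting the paper names a nontargeting guide RNA, and in a figure legend a mitfa:EV vector. Wild-type melanophores came from fish without these plasmids. The paper reports aggressive tumors in the control fish but none in the mutant fish, whose melanocytes showed only signs of aggregation. The name mgat4b mutant melanoma follows the labels. In a comparison of these 2 groups, the loss of mgat4b and the absence of a tumor cannot be told apart. The targeting was somatic and limited to cells with an active mitfa promoter, so that each fish was a mosaic, and the cells isolated from MAZERATI skin included untransformed melanocytes beside any transformed cells. All cells were released with Liberase and enriched on a Percoll gradient, with no sort for a marker. The paper's methods name skin and melanoma biopsies as the starting tissue. Any difference in isolation between the groups was not tested and cannot be told apart from the groups. The labels call the replicates biological, but the series' design text names fewer fish than there are libraries. If that number is the total, libraries shared fish and are not independent, and all p-values and standard errors given here measure only the spread between these libraries.

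The libraries held between 3538922 and 8446997 counts. The most abundant gene in all of them was rn7sl1, the RNA of the signal recognition particle, with 30.7% and 26.2% of the counts in mgat4b mutant melanoma, 37.4% and 37.3% in control melanoma and 7.65% in both libraries of wild-type melanophores. Levels are therefore given as CPM, the counts of a gene relative to the size of its library, with these sizes scaled by TMM, a method that sets the sizes so that most genes do not differ. The targeted gene mgat4b had 94 and 52 counts in mgat4b mutant melanoma, 102 and 107 in control melanoma and 264 and 260 in wild-type melanophores. On the CPM scale the mutant libraries, at 20.1 and 15.4, overlapped the control libraries, at 15.8 and 16.2. The counts of the gene thus did not separate the mutant from the control libraries, and the edit itself was not analysed here. The 12 melanophore markers measured summed to 302 and 275 CPM in mgat4b mutant melanoma, 265 and 271 CPM in control melanoma and only 52.0 and 56.7 CPM in wild-type melanophores. The libraries labelled melanophores were the lowest in melanophore markers, although all 12 had a count in both of them. The 13 keratinocyte markers summed to 16636 and 16161 CPM in mgat4b mutant melanoma, 13268 and 12982 CPM in control melanoma and 20885 and 21335 CPM in wild-type melanophores, so that RNA of other skin cells was present in every library. In such bulk RNA, fewer cells of a type and less RNA per cell cannot be told apart.

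The 10 genes together made 4108 and 3913 CPM in mgat4b mutant melanoma, 5791 and 5829 CPM in control melanoma and 6940 and 6707 CPM in wild-type melanophores. The sum was lowest in the mutant libraries and highest in wild-type melanophores, with no overlap between the groups. The largest falls from wild-type melanophores to control melanoma were those of junbb (mean 1408 to 799 CPM) and ier2a (mean 756 to 297 CPM). The median log2 fold change of the 10 genes in that comparison was 0.04, so that the sum does not show a fall of the whole set there. As a share of all counts, with no scaling, they made 0.368% and 0.374% in mgat4b mutant melanoma, 0.456% in both libraries of control melanoma and 0.959% and 0.921% in wild-type melanophores, which is the same order. These shares depend on rn7sl1. With its counts left out they were 0.530% and 0.507% in mgat4b mutant melanoma, 0.728% and 0.727% in control melanoma and 1.04% and 0.997% in wild-type melanophores. Single members ranged from 141 counts, for atf3 in the second mutant library, to 14997 counts, for junbb in the first library of wild-type melanophores, so that all 10 were measured well above the limit of detection and all 10 passed the filter on low counts in each comparison. A gene was called changed where it passed an adjusted p of 0.05 and its log2 fold change was 1 or more in size, with p from the quasi-likelihood test of edgeR and adjusted over all genes tested by the method of Benjamini and Hochberg. Log2 fold changes are given with their standard errors (SE).

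**Figure D1:**
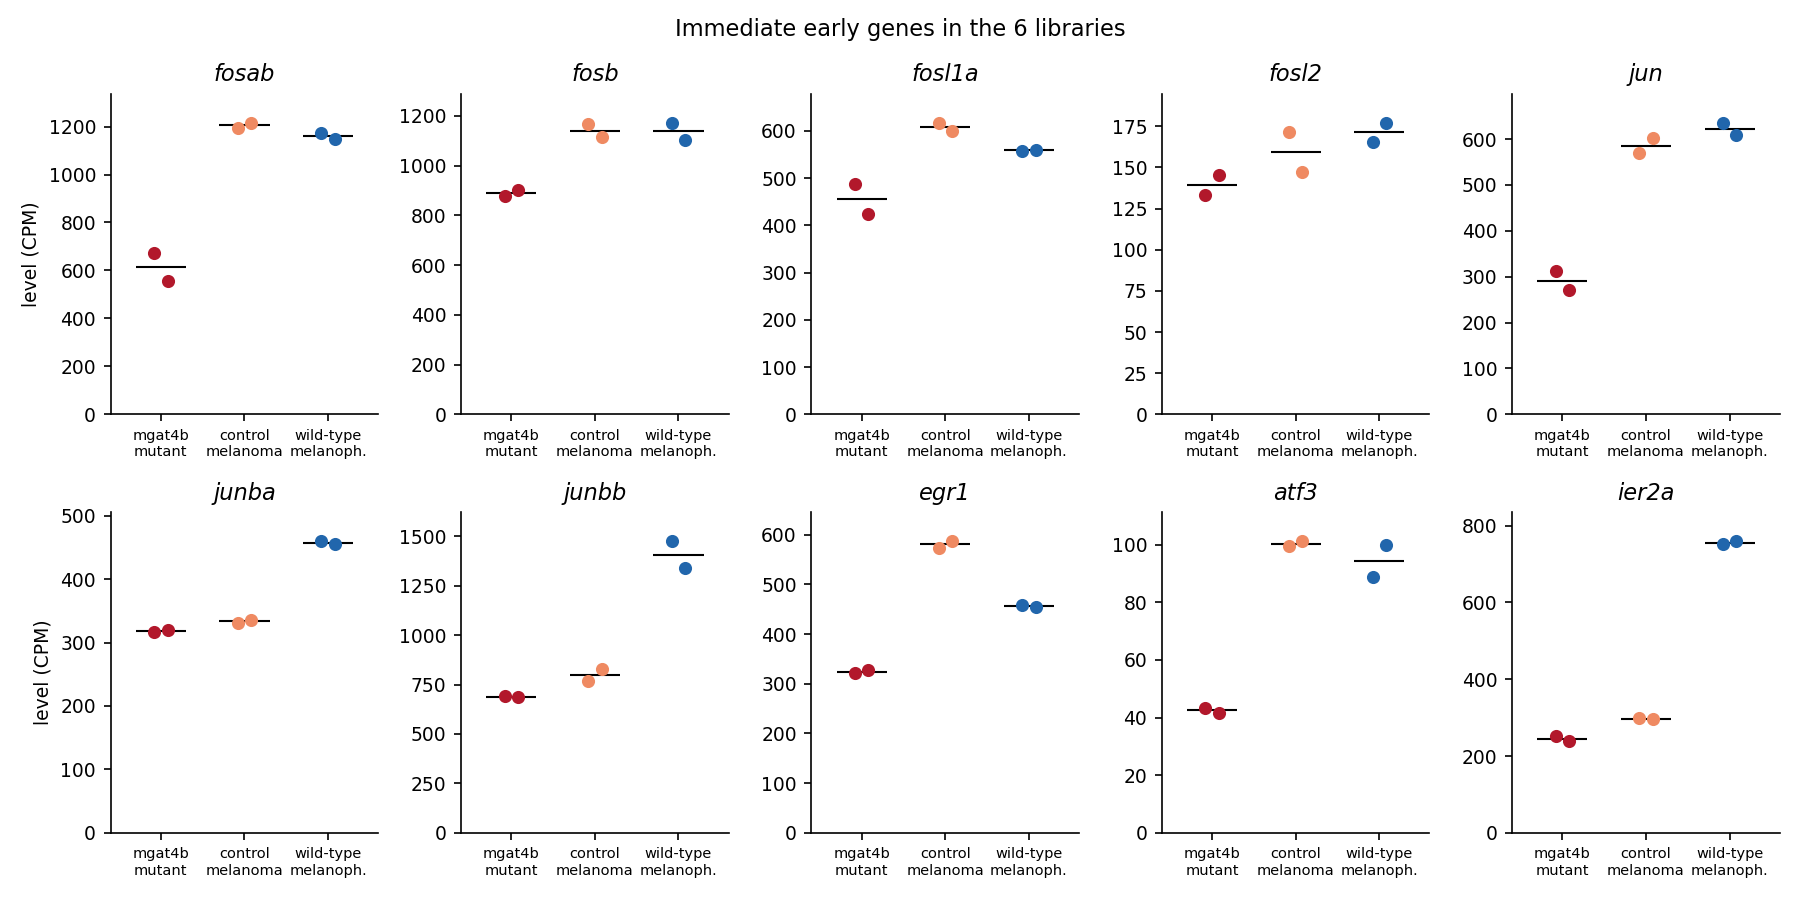
Level of each of the 10 genes, in CPM on a linear axis that starts at 0, with 1 point per library and a line at the mean of the 2 libraries of a group. The mutant points lie below all others in every panel, on this scale with TMM. In the panels of fosab, jun and atf3 the control points are level with those of wild-type melanophores or close to them, and in the panels of junbb and ier2a they lie near the mutant points.

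Fos proteins do not pair with each other and take part in AP-1 as partners of Jun proteins. The gene fosab (ENSDARG00000031683, chromosome 20, 46552311 to 46554440, minus strand, GRCz11) encodes c-Fos. It had 671 and 556 CPM in mgat4b mutant melanoma, 1193 and 1216 CPM in control melanoma and 1173 and 1148 CPM in wild-type melanophores. The 2 mutant libraries differed from each other by more than those of any other member and group, by 0.27 on the log2 scale, and both lay well below the other 4 libraries, which stood close together. The log2 fold change in mgat4b mutant melanoma was −0.96 against control melanoma (SE 0.10, adjusted p = 0.000374) and −0.89 against wild-type melanophores (SE 0.10, adjusted p = 0.00116), short of the minimum fold change in both cases. Control melanoma set against wild-type melanophores gave 0.14 (SE 0.04, adjusted p = 0.00797).

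The gene fosb (ENSDARG00000055751, chromosome 18, 36769758 to 36774965, plus strand) encodes FosB, which has a strong activation domain. It had 879 and 903 CPM in mgat4b mutant melanoma, 1167 and 1115 CPM in control melanoma and 1173 and 1104 CPM in wild-type melanophores. The mutant libraries were the lowest again, and the control and wild-type libraries overlapped. The log2 fold change in mgat4b mutant melanoma was −0.34 against control melanoma (SE 0.08, adjusted p = 0.0187) and −0.33 against wild-type melanophores (SE 0.07, adjusted p = 0.0195), and that in control melanoma against wild-type melanophores was 0.08 (SE 0.05, adjusted p = 0.111).

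The genes fosl1a and fosl2 encode Fra-1 and Fra-2, Fos proteins without the strong activation domain, and Fra-1 is known as an AP-1 member that MAP kinase signalling stabilizes in tumor cells. The gene fosl1a (ENSDARG00000015355, chromosome 14, 30739476 to 30747686, minus strand) had 488 and 424 CPM in mgat4b mutant melanoma, 618 and 599 CPM in control melanoma and 558 and 559.6 CPM in wild-type melanophores. Its 3 groups did not overlap, with control melanoma highest on this scale. The log2 fold change was −0.40 in mgat4b mutant against control melanoma (SE 0.10, adjusted p = 0.0212), −0.26 in mgat4b mutant melanoma against wild-type melanophores (SE 0.09, adjusted p = 0.0770) and 0.20 for control melanoma against wild-type melanophores (SE 0.05, adjusted p = 0.000499).

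The gene fosl2 (ENSDARG00000040623, chromosome 17, 41302660 to 41318547, plus strand) had 133 and 145 CPM in mgat4b mutant melanoma, 172 and 147 CPM in control melanoma and 165 and 177 CPM in wild-type melanophores. It varied least of the 4 Fos family genes: the second control library was level with the mutant libraries, and none of the 3 comparisons passed the test. Its log2 fold change in mgat4b mutant melanoma was −0.18 against control melanoma (SE 0.12, adjusted p = 0.349) and −0.27 against wild-type melanophores (SE 0.10, adjusted p = 0.0962), and control melanoma set against wild-type melanophores gave −0.02 (SE 0.07, adjusted p = 0.820).

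The Jun family can pair with Fos proteins or with itself. The gene jun (ENSDARG00000043531, chromosome 20, 15552657 to 15554606, plus strand) encodes c-Jun, the target of the JNK kinases. It had 311 and 272 CPM in mgat4b mutant melanoma, 569 and 602 CPM in control melanoma and 636 and 609 CPM in wild-type melanophores. Both mutant libraries were far below the others, and control melanoma lay just under wild-type melanophores without overlap. It fell by 1.06 on the log2 scale in mgat4b mutant melanoma against wild-type melanophores (SE 0.09, adjusted p = 0.000392), and without the second mutant library the value of −0.99 missed the minimum. Against control melanoma its log2 fold change of −0.99 (SE 0.10, adjusted p = 0.000285) was just short of the minimum. Control melanoma set against wild-type melanophores gave −0.01 (SE 0.05, adjusted p = 0.930).

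The genes junba and junbb are the 2 zebrafish copies of JunB, which holds back or replaces c-Jun at many genes. The gene junba (ENSDARG00000074378, chromosome 1, 51732979 to 51734535, minus strand) had 317 and 320.4 CPM in mgat4b mutant melanoma, 331 and 335 CPM in control melanoma and 460.0 and 455 CPM in wild-type melanophores. The 4 melanoma libraries lay within a narrow band below the melanophores. Its log2 fold change was −0.49 in mgat4b mutant melanoma (SE 0.08, adjusted p = 0.00516) and −0.38 in control melanoma (SE 0.05, adjusted p = 5.91e-08), each against wild-type melanophores, and −0.05 between mgat4b mutant and control melanoma (SE 0.09, adjusted p = 0.763).

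The gene junbb (ENSDARG00000104773, chromosome 3, 7654655 to 7656059, minus strand) had 693 and 685 CPM in mgat4b mutant melanoma, 769 and 829 CPM in control melanoma and 1476 and 1339.7 CPM in wild-type melanophores. As for its copy, the melanoma libraries lay together and well below the melanophores. It fell in mgat4b mutant melanoma to 0.499 times its level in wild-type melanophores (adjusted p = 0.000250), a call that sits on the minimum fold change and was lost without the first library of wild-type melanophores (log2 fold change −0.96). Control melanoma set against wild-type melanophores gave −0.73 (SE 0.05, adjusted p = 2.64e-18), and mgat4b mutant set against control melanoma gave −0.20 (SE 0.08, adjusted p = 0.142).

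The gene atf3 (ENSDARG00000007823, chromosome 20, 37794633 to 37800737, plus strand) encodes a bZIP protein of the cellular stress response that pairs with Jun proteins. It had 43.4 and 41.7 CPM in mgat4b mutant melanoma, 99.5 and 101 CPM in control melanoma and 88.7 and 99.7 CPM in wild-type melanophores. Control melanoma and wild-type melanophores overlapped, and both mutant libraries were below the lowest of them by more than the whole spread of the others. It fell by 1.22 on the log2 scale in mgat4b mutant melanoma against control melanoma (SE 0.13, adjusted p = 0.000423) and by 1.12 against wild-type melanophores (SE 0.13, adjusted p = 0.00133). It was the only one of the 10 genes called between mgat4b mutant and control melanoma. Its log2 fold change in control melanoma against wild-type melanophores was 0.17 (SE 0.08, adjusted p = 0.0717).

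The gene egr1 (ENSDARG00000037421, chromosome 14, 21332522 to 21336385, minus strand) encodes a zinc finger factor that serum response factor and its ETS partners switch on below the MAP kinase ERK. It had 321 and 328 CPM in mgat4b mutant melanoma, 574 and 587 CPM in control melanoma and 459 and 455 CPM in wild-type melanophores. The 3 groups were fully apart on this scale, with control melanoma highest, the order that fosl1a showed too. The log2 fold change was −0.82 in mgat4b mutant against control melanoma (SE 0.09, adjusted p = 0.000366), −0.47 in mgat4b mutant melanoma against wild-type melanophores (SE 0.08, adjusted p = 0.00648) and 0.43 in control melanoma against wild-type melanophores (SE 0.05, adjusted p = 5.71e-10).

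The gene ier2a (ENSDARG00000099195, chromosome 3, 33761549 to 33762726, plus strand) encodes a small nuclear protein of the immediate early response that has no bZIP or zinc finger domain. It had 252 and 239 CPM in mgat4b mutant melanoma, 299 and 296 CPM in control melanoma and 751 and 759.7 CPM in wild-type melanophores. The 2 libraries of wild-type melanophores stood far above all 4 melanoma libraries. It fell by 1.60 on the log2 scale in mgat4b mutant melanoma (SE 0.08, adjusted p = 3.85e-05) and in control melanoma by 1.26 (SE 0.05, adjusted p = 1.62e-26), each against wild-type melanophores. Between mgat4b mutant and control melanoma the log2 fold change was −0.26 (SE 0.09, adjusted p = 0.0870).

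**Figure D2:**
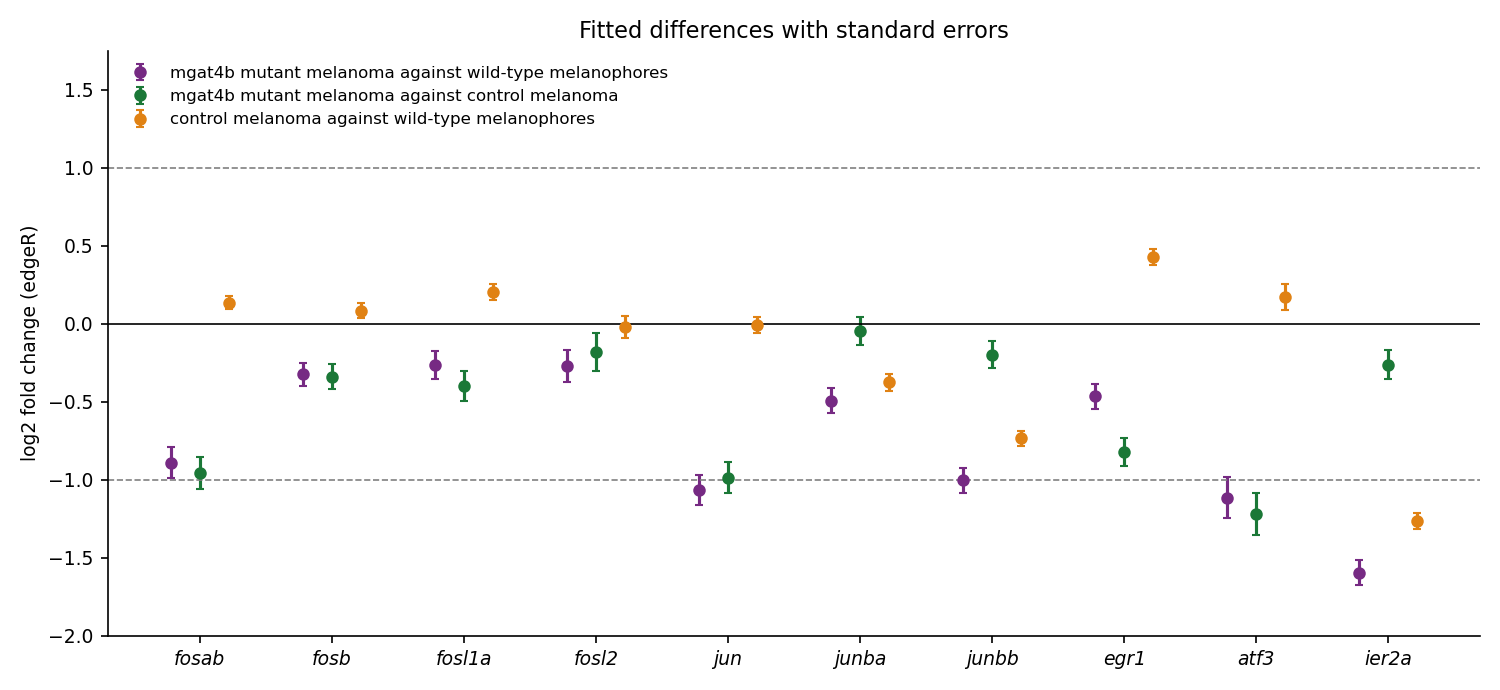
Fitted log2 fold change of each gene in the 3 comparisons, with bars of 1 standard error and dashed lines at the minimum fold change of a call. With TMM scaling the mutant comparisons lie below 0 for all 10 genes (fosl2, junba and junbb were above 0 against control melanoma on library totals, though below the median of all genes there), atf3 is past the lower line in both of them, and ier2a is past it in both comparisons with wild-type melanophores.

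The close copies of these genes gave values that bear on how far a pattern belongs to 1 copy. The gene ier2b (ENSDARG00000086881, chromosome 11), the partner copy of ier2a, had 171 and 175 CPM in mgat4b mutant melanoma, 181 and 193 CPM in control melanoma and 695 and 688 CPM in wild-type melanophores. It fell by 1.97 on the log2 scale in mgat4b mutant melanoma (SE 0.08, adjusted p = 1.94e-05) and by 1.81 in control melanoma (SE 0.06, adjusted p = 1.02e-31), so that both copies of Ier2 were low in both melanoma groups. The jund gene (ENSDARG00000067850, chromosome 2), the remaining Jun family member, had 198 and 160.2 CPM in mgat4b mutant melanoma, 263 and 276 CPM in control melanoma and 452 and 449 CPM in wild-type melanophores. It fell by 1.30 on the log2 scale in mgat4b mutant melanoma against wild-type melanophores (SE 0.12, adjusted p = 0.000389). The second copies of the Fos genes were scarce: fosaa had between 32 and 154 counts per library, fosl1b between 8 and 27 and fosl2l between 0 and 6, and none was called in any comparison in which it was tested.

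Set against exon length, the genes differed in level by more than 10-fold within each group. As CPM per kilobase of exon, wild-type melanophores had most junbb (1002 ± 68.4), then fosab (683 ± 10.5), ier2a (641 ± 5.04), fosb (406 ± 17.4), jun (319 ± 9.77) and junba (294 ± 2.11), and least atf3 (34.9 ± 2.90; SD, n = 2 for each). By this measure junbb ranked 44 among 32520 genes there. In control melanoma fosab led with 709 ± 9.79 CPM per kilobase (SD, n = 2), ahead of junbb with 569 ± 30.3, and ier2a had moved behind fosb and jun with 252 ± 1.58. In mgat4b mutant melanoma junbb led with 490.2 ± 3.82 CPM per kilobase (SD, n = 2), followed by fosab with 361 ± 47.9 and fosb with 318 ± 6.26, and atf3 was last with 15.8 ± 0.454. Within a group, all neighbours in the order were apart in both libraries, with the exception of ier2a and junba in mgat4b mutant melanoma.

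**Figure D3:**
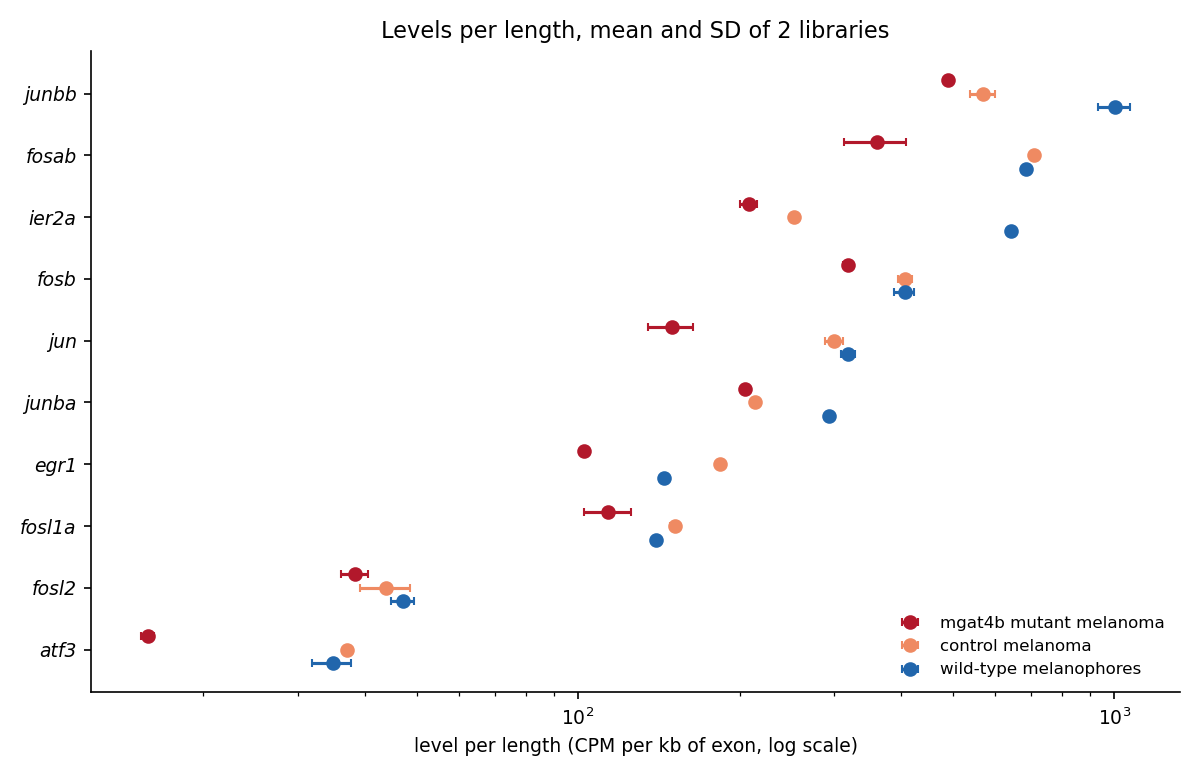
Level of each gene as CPM per kilobase of exon, on a log axis, as the mean and SD of 2 libraries per group. The genes are ordered by their level in wild-type melanophores, from junbb at the top to atf3, and the largest gaps between groups are those of ier2a and atf3.

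Ratios of counts within a library do not depend on how libraries are scaled. Relative to fosl2, the member with the smallest changes, the counts of jun were 2.10 ± 0.326 in mgat4b mutant melanoma, 3.70 ± 0.544 in control melanoma and 3.64 ± 0.291 in wild-type melanophores (SD, n = 2 each). Those of atf3 were 0.306 ± 0.0270 in mgat4b mutant melanoma, 0.633 ± 0.0758 in control melanoma and 0.549 ± 0.0186 in wild-type melanophores. The counts of ier2a relative to fosl2 were 1.76 ± 0.170 in mgat4b mutant melanoma, 1.87 ± 0.190 in control melanoma and 4.42 ± 0.183 in wild-type melanophores. By this measure jun and atf3 were low in mgat4b mutant melanoma and ier2a was low in both melanoma groups. The ratio of fosab was low in the mutant too, with 4.43 ± 0.847 in mgat4b mutant melanoma, 7.60 ± 0.924 in control melanoma and 6.78 ± 0.439 in wild-type melanophores. The ratio of junbb was low in both melanoma groups, with 4.95 ± 0.332 in mgat4b mutant melanoma, 5.06 ± 0.812 in control melanoma and 8.24 ± 0.968 in wild-type melanophores. That of egr1 was highest in control melanoma, with 2.33 ± 0.104 in mgat4b mutant melanoma, 3.66 ± 0.454 in control melanoma and 2.67 ± 0.149 in wild-type melanophores. The mean ratios of fosb (6.40 in mgat4b mutant melanoma, 7.18 in control melanoma and 6.66 in wild-type melanophores), fosl1a (3.29 in mgat4b mutant melanoma, 3.83 in control melanoma and 3.27 in wild-type melanophores) and junba (2.29 in mgat4b mutant melanoma, 2.10 in control melanoma and 2.68 in wild-type melanophores) differed by less than 1.5 times between groups. A ratio of this kind shows that 2 genes changed unequally, not which of them changed.

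Against wild-type melanophores, 4 of the 10 genes fell in mgat4b mutant melanoma (jun, junbb, atf3 and ier2a) and 0 rose. Of all genes tested, 9.57% were called lower and 9.72% higher. With no minimum fold change, 8 of the 10 were lower and 0 higher, against 13.9% and 13.1% of all genes. With single libraries left out, all 10 log2 fold changes stayed below 0, with medians between −0.77 and −0.65. The median of all genes lay between −0.11 and −0.005 in these fits. Counts of genes passing are not compared for them, since 1 group then holds 1 library. At an unadjusted p under 0.05, all 10 were lower and 0 higher, against 20.5% and 19.3% of all genes. DESeq2 called 4 lower and 0 higher. Both mutant libraries were below both libraries of wild-type melanophores for 10 of 10 genes, which was so for 36.7% of all genes. The median log2 fold change was −0.69 over the 10 genes and −0.03 over all genes tested.

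Of the 48 tested on a list of further immediate early genes, 31 were lower and 2 higher at adjusted p alone. The median log2 fold change was −0.62. With the minimum fold change, 13 fell and 0 rose. They included socs3a, a feedback inhibitor of cytokine signalling, with 421 ± 1.93 CPM in mgat4b mutant melanoma and 1283 ± 2.18 CPM in wild-type melanophores (SD, n = 2 each; log2 fold change −1.58, SE 0.07, adjusted p = 2.77e-05). Another was nr4a1, an orphan nuclear receptor, with 469.7 ± 3.81 CPM in mgat4b mutant melanoma and 1047 ± 6.40 CPM in wild-type melanophores (log2 fold change −1.13, adjusted p = 0.000112). Unlike the 10 genes, nr4a1 was higher in both mutant libraries, at 472 and 467 CPM, than in the control libraries, at 337 and 326 CPM (log2 fold change 0.52, adjusted p = 0.00401). Among 21 other AP-1 and bZIP genes tested, 4 fell and 0 rose, with a median of −0.53, and one of the 4 was cebpb, a C/EBP factor of inflammation, at −1.26 (SE 0.10, adjusted p = 0.000283). Of 30 kinases and factors that act upstream of these genes, 0 were called, with 1 past the adjusted p alone in the higher direction and 4 in the lower, and a median of −0.28. Of all genes, 13.1% were higher and 13.9% lower at adjusted p alone, and 9.72% were called higher and 9.57% lower.

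Of 25 genes known as AP-1 targets, 2 were called higher and 3 lower in that comparison, with a median of 0.22. Of all genes, 9.72% were called higher and 9.57% lower, so that these counts were near the background. The gene s100a10b, whose product pairs with an annexin at the membrane, rose to 1317 ± 22.3 CPM in mgat4b mutant melanoma, against 508 ± 22.1 CPM in wild-type melanophores (log2 fold change 1.40, adjusted p = 5.14e-05), and plaub, one of the urokinase genes, had 25.5 ± 3.87 CPM in mgat4b mutant melanoma and 9.22 ± 0.315 CPM in wild-type melanophores (adjusted p = 0.00556). The heme oxygenase gene hmox1a fell by 2.01 (adjusted p = 0.000216), and plaua, the other urokinase gene, fell by 2.34 (adjusted p = 0.00352). Of 20 heat shock genes tested, 3 rose and 3 fell, against the same 9.72% and 9.57% of all genes. The 3 that rose were hspe1 (3.87, adjusted p = 2.63e-05), hspd1 (1.24, adjusted p = 0.00144) and hsp90aa1.1 (2.82, adjusted p = 0.00120), of which hspe1 and hspd1 encode the mitochondrial chaperonin. The 3 that fell were the stress-inducible genes hsp70l (−2.05, adjusted p = 0.00517), hsp70.3 (−1.34, adjusted p = 0.00615) and hsp70.1 (−1.30, adjusted p = 0.0483).

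**Figure D4:**
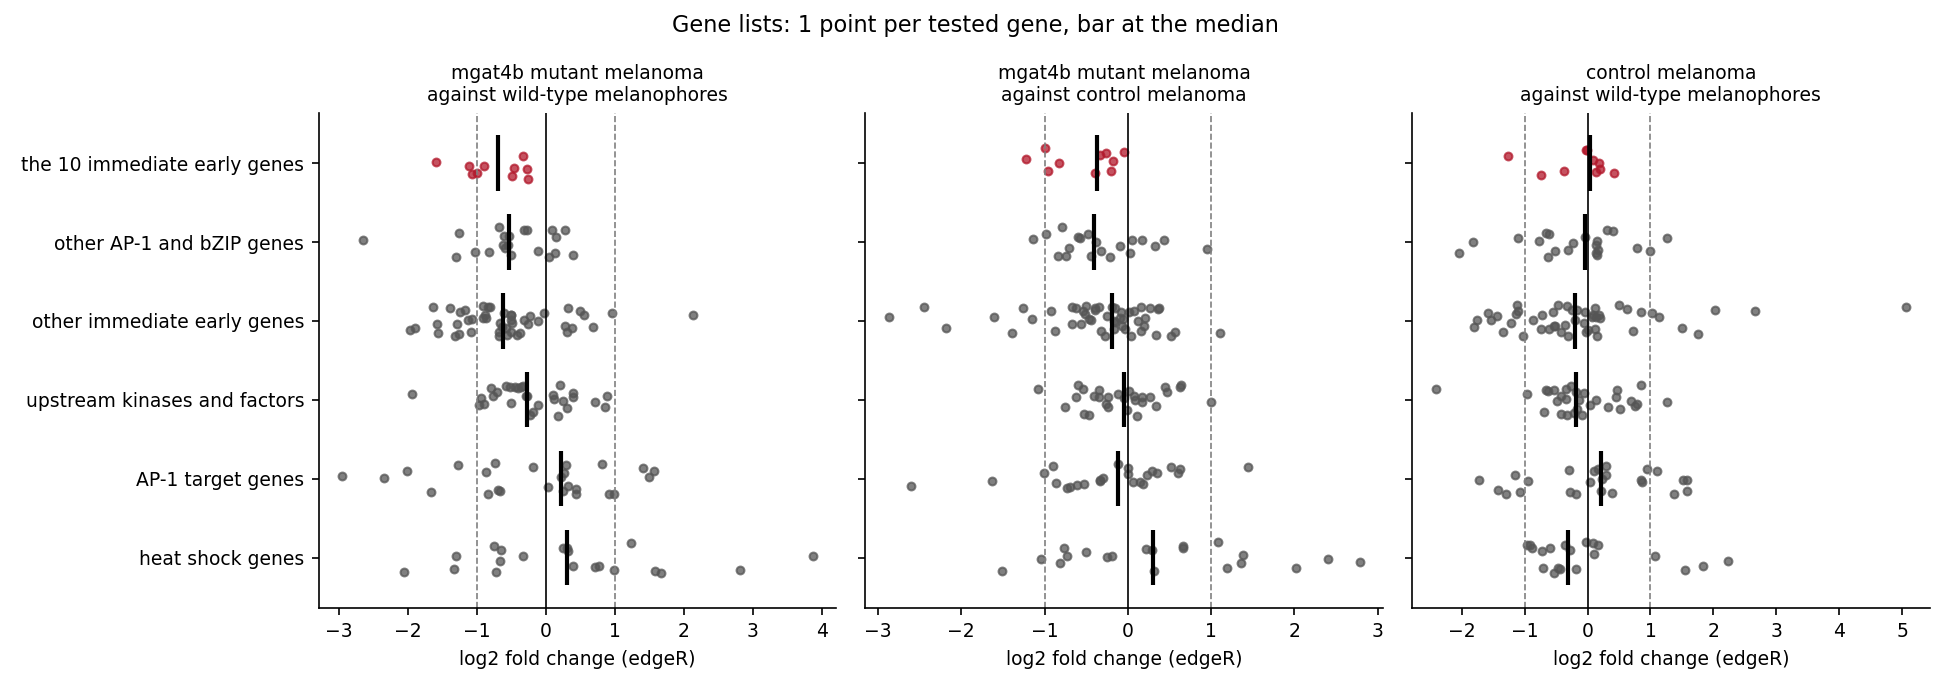
Log2 fold changes of the 10 immediate early genes and of the genes on 5 lists, with 1 point per tested gene, a bar at each median and dashed lines at the minimum fold change. In both mutant comparisons all 10 points lie below 0 with TMM scaling, of which fosl2, junba and junbb were above 0 against control melanoma on library totals, though below the median of all genes there. The medians of the other AP-1 and immediate early genes are below 0 in all 3 panels, and the heat shock genes spread to both sides.

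Between mgat4b mutant and control melanoma, 1 of the 10 genes fell (atf3) and 0 rose, while 6.68% of all genes tested were called lower and 5.86% higher. With no minimum fold change, 6 of the 10 were lower (fosab, fosb, fosl1a, jun, egr1 and atf3) and 0 higher, against 9.26% and 9.46% of all genes. With single libraries left out, all 10 log2 fold changes stayed below 0, with medians between −0.43 and −0.33. The median of all genes lay between −0.10 and 0.0016 in these fits. At an unadjusted p under 0.05, 8 were lower and 0 higher, against 16.4% and 16.1% of all genes. DESeq2 called 1 lower and 0 higher. On the CPM scale both mutant libraries were below both control libraries for 10 of 10 genes, against 32.8% of all genes, although the fitted fold changes of fosl2, junba and junbb turned to positive values on library totals without TMM, where the median of all genes was 0.19. The median log2 fold change was −0.37 over the 10 genes and −0.02 over all genes. The count of 1 turned on small differences in jun and fosab, which lay just inside the minimum fold change. Over all alternatives run, the log2 fold change of fosab lay between −1.12 and −0.74 and that of jun between −1.11 and −0.77.

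Around the 10 genes, 5 of 49 further immediate early genes fell and 0 rose in mgat4b mutant against control melanoma. Of all genes, 6.68% were called lower and 5.86% higher. The largest fall of the 5 was that of egr4, with 2.59 ± 0.938 CPM in mgat4b mutant melanoma and 14.1 ± 2.92 CPM in control melanoma (SD, n = 2 each; log2 fold change −2.45, SE 0.47, adjusted p = 0.00746). Next in size was ccn2b, a matricellular growth factor gene, with 8.33 ± 0.917 CPM in mgat4b mutant melanoma and 38.6 ± 2.56 CPM in control melanoma (log2 fold change −2.18, SE 0.24, adjusted p = 0.000465). The gene zfp36l1b, for an RNA decay factor that shortens the life of early transcripts, had 51.7 ± 0.854 CPM in mgat4b mutant melanoma and 116 ± 11.7 CPM in control melanoma (log2 fold change −1.15, SE 0.14, adjusted p = 0.000653). Of 20 other AP-1 and bZIP genes, 1 fell, the stress factor atf5b (−1.14, SE 0.20, adjusted p = 0.00443). Without the minimum fold change, 5 of the 20 were lower and 0 higher, with a median of −0.41. Of 29 upstream kinases and factors 0 were called, with 2 higher and 0 lower at adjusted p alone, against 9.46% and 9.26% of all genes. The AP-1 targets had 1 higher, s100a10b (1.44, adjusted p = 1.49e-05), and 1 lower, the membrane protease gene mmp14a (43.5 ± 10.4 CPM in mgat4b mutant melanoma and 87.4 ± 1.28 CPM in control melanoma, adjusted p = 0.00497), of 25 tested. At adjusted p alone, 1 of the 25 AP-1 targets was higher and 6 were lower. Of 20 heat shock genes, 6 rose and 1 fell. Among the 6 were hspe1 (2.40, adjusted p = 4.56e-05) and hspd1 (2.02, adjusted p = 7.41e-05), while the 1 lower gene was the inducible hsp70l, with 7.70 and 4.14 CPM in mgat4b mutant melanoma and 18.7 and 16.3 CPM in control melanoma (−1.52, adjusted p = 0.0246).

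In control melanoma against wild-type melanophores, 1 of the 10 genes fell (ier2a) and 0 rose, while 12.1% of all genes were called lower and 19.9% higher. With no minimum fold change, 3 were lower (junba, junbb and ier2a) and 3 higher (fosab, fosl1a and egr1, each of them negative on library totals without TMM, where the median of all genes was −0.90), against 27.0% and 29.2% of all genes, which is close to the background. At an unadjusted p under 0.05, 3 were lower and 4 higher, against 29.3% and 31.2% of all genes, and DESeq2 called 1 lower and 0 higher. The median log2 fold change was 0.04 over the 10 genes and −0.01 over all genes.

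The further immediate early genes went both ways, with 7 called higher and 11 lower of 49 in control melanoma against wild-type melanophores. Of all genes, 19.9% were called higher and 12.1% lower. At adjusted p alone, 14 of the 49 were higher and 25 lower, against 29.2% and 27.0% of all genes. The median of the list was −0.20, so that it leaned to the lower side. The 7 included ccn2a, a copy of ccn2b (47.1 ± 3.83 CPM in control melanoma and 12.2 ± 0.589 CPM in wild-type melanophores, log2 fold change 2.03, SE 0.14, adjusted p = 2.09e-17), and zfp36l1b (1.49, SE 0.09, adjusted p = 3.23e-19). The 11 included ier2b and nr4a1, with nr4a1 at 331 ± 7.35 CPM in control melanoma and 1047 ± 6.40 CPM in wild-type melanophores (−1.58, SE 0.05, adjusted p = 2.98e-31). Of 21 other AP-1 and bZIP genes, 1 rose, atf5b (1.26, SE 0.14, adjusted p = 3.21e-11), and 3 fell, among them cebpb (−1.10, SE 0.05, adjusted p = 7.06e-24) and batf (−1.82, SE 0.20, adjusted p = 7.33e-11), an AP-1 partner of lymphocytes that lies beside fosab on chromosome 20. Upstream, 1 of 30 rose, mknk2a (1.26, SE 0.20, adjusted p = 3.47e-07), a kinase that acts below ERK, and 1 fell, srfb, which had no more than 27 counts in any library. The AP-1 targets were split evenly, 5 higher and 5 lower of 25, against the same 19.9% and 12.1% of all genes. The matrix genes timp2b (1.58, adjusted p = 7.89e-17) and mmp14a (1.51, adjusted p = 5.04e-18) were higher, and cd44a (−1.15, adjusted p = 4.69e-17) and hmox1a (−1.07, adjusted p = 6.98e-12) were lower. Of 20 heat shock genes 4 rose, including hspe1 (1.54, adjusted p = 9.95e-12) and the small heat shock gene hspb1 (2.24, adjusted p = 5.80e-08), and 0 fell by the minimum fold change. At adjusted p alone 9 were lower and 4 higher, against 27.0% and 29.2% of all genes, and the median of the list was −0.31. The summed level of the list was 3068 and 3151 CPM in control melanoma and 5745 and 5772 CPM in wild-type melanophores, with the abundant chaperone genes hspa8 (−0.92, adjusted p = 2.12e-25) and hsp90ab1 (−0.96, adjusted p = 3.89e-24) just inside the minimum.

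The size of these differences depends on the scaling. On library totals without TMM, an alternative chosen after seeing the data, the median log2 fold change of all genes was −0.90 for control melanoma against wild-type melanophores, −0.63 for mgat4b mutant melanoma against wild-type melanophores and 0.19 for mgat4b mutant against control melanoma. The median of the 10 genes on that scale was −0.85 for control melanoma against wild-type melanophores, −1.30 for mgat4b mutant melanoma against wild-type melanophores and −0.15 for mgat4b mutant against control melanoma. Control melanoma then had log2 fold changes below 0 for all 10 genes, so that the positive values of fosab, fosb, fosl1a, egr1 and atf3 turned to negative ones, which all stayed above the median of all genes. On that scale 3 of the 10 genes were called lower in control melanoma against wild-type melanophores, while 44.9% of all genes were, and 7 of the 10 in mgat4b mutant melanoma against wild-type melanophores, while 24.6% of all genes were. Of the 10 genes, 1 was called lower in mgat4b mutant against control melanoma on that scale, against 5.06% of all genes. Between mgat4b mutant and control melanoma the small differences of fosl2, junba and junbb turned to positive values that lay below the median of all genes, while fosab, jun, egr1 and atf3 stayed lower and past the adjusted p.

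Other cell types moved with these groups. The sum of 11 leukocyte markers was 605 and 701 CPM in mgat4b mutant melanoma, 580.4 and 590.3 CPM in control melanoma and 1093 and 1148 CPM in wild-type melanophores. Like the keratinocyte sum it was highest in wild-type melanophores, as were junba, junbb and ier2a. The CPM of jun were highest there too, but its fitted log2 fold change in control melanoma against wild-type melanophores was only −0.01. Both marker sums were higher in the mutant than in the control libraries, whereas all 10 genes were lower there on the CPM scale. Single markers went both ways in that comparison. At adjusted p alone, 6 of the 13 keratinocyte markers were higher and 3 lower, and 2 of the 11 leukocyte markers were higher and 1 lower. All 11 leukocyte and 13 keratinocyte markers had counts in every library. The sum of 11 fibroblast and scale markers was 11995 and 11595 CPM in mgat4b mutant melanoma, 62356 and 63713 CPM in control melanoma and 4545 and 4055 CPM in wild-type melanophores. It was highest in control melanoma, as were fosab, fosl1a and egr1, whose groups did not overlap with TMM scaling. On library totals without TMM, these genes had negative log2 fold changes in control melanoma against wild-type melanophores (−0.76, −0.69 and −0.47). Of the 11 fibroblast and scale markers, 10 were called lower in mgat4b mutant against control melanoma, against 6.68% of all genes. Control melanoma was highest in 3 more marker sums. The 9 skeletal muscle markers summed to 1008 and 963 CPM in mgat4b mutant melanoma, 1772 and 1783 CPM in control melanoma and 75.6 and 70.4 CPM in wild-type melanophores, and the 6 endothelium markers to 20.5 and 18.6 CPM in mgat4b mutant melanoma, 66.1 and 60.8 CPM in control melanoma and 21.8 and 16.8 CPM in wild-type melanophores. The 5 erythrocyte markers summed to 1539 and 1474 CPM in mgat4b mutant melanoma, 1709 and 1722 CPM in control melanoma and 975 and 957 CPM in wild-type melanophores. Between mgat4b mutant and control melanoma 0 of 12 melanophore markers passed the adjusted p, against 9.46% of all genes higher and 9.26% lower. The marker dct was at 0 in the second mutant library. The part of these cell types in the levels of the 10 genes was not tested.

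**Figure D5:**
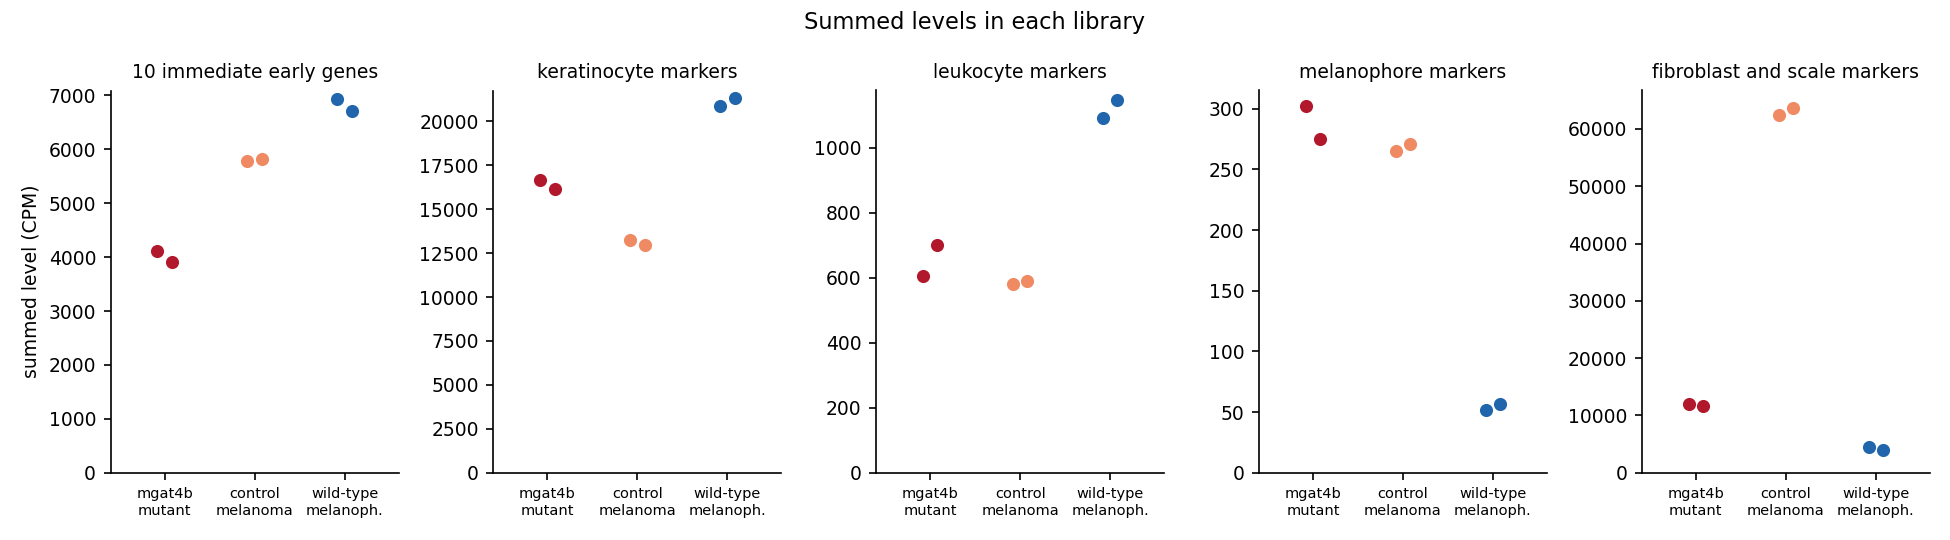
Summed level, in CPM on linear axes that start at 0, of the 10 immediate early genes and of the markers of 4 cell types, with 1 point per library. The keratinocyte and leukocyte sums are highest in wild-type melanophores, the fibroblast and scale sum is highest in control melanoma, and the melanophore sum is lowest in the libraries labelled melanophores.

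The 10 genes did not follow 1 pattern. Over the 6 libraries, the distance of a gene's centred log2 CPM from the mean of the 10 was smallest for fosb (0.178) and fosab (0.185) and largest for atf3 (0.279) and ier2a (0.478), as a root mean square. Among 9043 other genes that averaged 10 CPM or more, the 3 nearest to the mean pattern were the syntenin gene sdcbp2 (0.0216), the transglutaminase gene tgm1l1 (0.0401) and btg2 (0.0416). The antiproliferative gene btg2 is itself an immediate early gene, and it averaged 549 CPM in mgat4b mutant melanoma, 809 CPM in control melanoma and 986 CPM in wild-type melanophores. The likeness is a description over libraries that share their groups and their composition.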

How the data were processed

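Zebrafish skin cells of 6 libraries were profiled by total RNA sequencing after depletion of ribosomal RNA. The authors used Trimmomatic for trimming, STAR for alignment to GRCz11 and featureCounts for counting, and they deposited the unnormalized counts of each gene. The strand setting and the treatment of reads shared by near-identical or overlapping genes are not given in the sources used here, so that such genes are uncertain.

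Symbols came from a table of identifiers and names that covered 29201 of 32520 identifiers. Where a symbol without suffix met several identifiers, the chromosome given by RefSeq decided. The software was edgeR 4.0.16, DESeq2 1.42.0 and limma 3.58.1 under R 4.3.3. The quasi-likelihood test was fitted to the 4 libraries of each comparison and to all genes that passed filterByExpr (minimum count 10, minimum total count 15), with TMM scaling and Benjamini-Hochberg adjustment. CPM were scaled by TMM over all 6 libraries, so that log2 ratios of CPM differ from the fitted values by −0.08 in control melanoma against wild-type melanophores, −0.03 in mgat4b mutant melanoma against wild-type melanophores and −0.02 in mgat4b mutant against control melanoma. The procedure was tested on simulated data with the same spread in all libraries and no difference in the share of rn7sl1 between groups. That setting cannot show how the procedure does with the wider spread of the mutant libraries or with the scaling problem described above.

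The members and lists were chosen with earlier results of these data known. The named genes were all 10 members, the 3 genes nearest to their mean pattern, and per list and comparison up to 2 called genes with the lowest p among those higher and up to 2 among those lower. Beyond this rule, hsp70.1, hspd1 against wild-type melanophores, nr4a1 in the mutant, egr4, hspa8, hsp90ab1 and the close copies were chosen after their values were seen. Replicate libraries differed by a chi-square per gene of 10.2 in mgat4b mutant melanoma, 2.52 in control melanoma and 2.31 in wild-type melanophores, and all were kept. The alternatives were DESeq2, its size factors in edgeR, other filters and thresholds, all 6 libraries in one fit, a replicate block, library sizes without the most abundant genes, library totals without TMM and leaving out each library.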

Additional observations from a re-analysis of the deposited data

Results flagged for a closer look

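The difference from wild-type melanophores was not the same in mgat4b mutant and control melanoma for atf3, the stress-induced partner of the Jun proteins. Its log2 fold change was −1.12 in mgat4b mutant melanoma and 0.17 in control melanoma, each against the same 2 libraries of wild-type melanophores. The difference was tested directly as mgat4b mutant against control melanoma and came to −1.22 (SE 0.13, adjusted p = 0.000423 in edgeR's quasi-likelihood test), with both mutant libraries below both control libraries. Under all alternatives run it kept its direction and its call, with values between −1.29 and −1.002. The smallest of these falls was only just past the minimum fold change. The part of cell composition in it was not tested, and genotype cannot be told apart from whether a tumor had formed. Only the minimum fold change set atf3 apart from jun (−1.06 and −0.01), fosab (−0.89 and 0.14) and egr1 (−0.47 and 0.43). Their direct differences were −0.99, −0.96 and −0.82. The adjusted p in the same test were 0.000285 for jun, 0.000374 for fosab and 0.000366 for egr1.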

How the results depend on the processing

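Fold changes of the 10 genes in the 3 comparisons were compared with the reported ones under each alternative fit or threshold. Of these values, 376 kept their direction and their side of the threshold, 27 passed it newly, 3 lost it and 14 turned direction. The tally includes 2 changed thresholds, no minimum fold change and an adjusted p under 0.01. These reuse the reported fit, so that they can move a call but not a direction, and part of the 27 came from dropping the minimum. With no minimum fold change the number of the 10 genes called was 3 higher and 3 lower in control melanoma against wild-type melanophores, 8 lower in mgat4b mutant melanoma against wild-type melanophores and 6 lower in mgat4b mutant against control melanoma. With the minimum fold change kept, the reported count was 1 lower in mgat4b mutant against control melanoma. It became 2 with no filter on low counts, 3 with at least 10 counts in every library and 2 with all 6 libraries in one fit. On library totals without TMM, chosen after seeing the data, 3 were lower in control melanoma and 7 in mgat4b mutant melanoma, each against wild-type melanophores, where 44.9% and 24.6% of all genes were called lower and the median of all genes was −0.90 and −0.63. Log2 fold changes in control melanoma against wild-type melanophores then turned to −0.76 for fosab, −0.81 for fosb, −0.69 for fosl1a, −0.47 for egr1 and −0.72 for atf3, and in mgat4b mutant against control melanoma to 0.041 for fosl2, 0.17 for junba and 0.022 for junbb. That of jun in control melanoma against wild-type melanophores, −0.01 in the reported fit and −0.90 on library totals without TMM, was 0.0044 with DESeq2 size factors, 0.014 with at least 10 counts in every library and between −0.062 and 0.033 with single libraries left out, and that of fosl2, −0.91 on library totals, was between −0.14 and 0.083 with single libraries left out. The call of junbb in mgat4b mutant melanoma against wild-type melanophores was lost with DESeq2 size factors at −0.996. In the comparisons of mgat4b mutant melanoma, leaving out 1 library moved the number of all genes called to between 542 and 3570 in a direction. Deviations of same-numbered libraries were uncorrelated (−0.0083, 0.0052 and −0.0090 in the 3 comparisons), and with a replicate block the number of genes called lower stayed at 1 in control melanoma and 4 in mgat4b mutant melanoma against wild-type melanophores and at 1 in mgat4b mutant against control melanoma. The cause of these shifts was not tested. Precision is limited by 2 libraries per group and, for atf3 with 141 counts in one library, also by depth.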
